A study of Mus musculus with 12 samples.

Results

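Titin, 2 proteins of the M-band and 6 proteins of the Z-disc were followed in mouse atria in which the transcription factor Tbx3 had been switched on. The members were all probes that the platform annotation assigns to Ttn, Myom1, Myom2, Actn2, Ldb3, Tcap, Nebl, Csrp3 or Myoz2, that is 9 of the 17655 named genes on the array. Of the 46114 probes with values 27 met this rule, 11 of them for Ttn, 2 for the M-band and 14 for the Z-disc. RNA came from the atria of 6 male Tbx3 mice (Cre4-CT), which carry the Nppa-Cre4 transgene together with the CT construct whose Tbx3 is activated by Cre, and from 6 male Control mice (Cre4), which carry Nppa-Cre4 alone. The ages of the mice are not given in the labels. Both groups therefore carry Cre under the Nppa promoter, which is active in atrial muscle cells, and there was no group with CT and without Cre. Each sample was hybridised to an Illumina Sentrix Mouse-6 beadchip, and the number of arrays, 6 in each group, limits the precision.

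The sarcomere, the contractile unit of striated muscle, is bordered by Z-discs, in which the actin filaments of neighbouring sarcomeres are crosslinked, and has the M-band at its middle, where the myosin filaments are held in register. Titin is a giant elastic protein that runs from the Z-disc to the M-band and gives resting muscle its passive stiffness. In the heart its transcript is spliced into isoforms of different stiffness. Myomesin 1 (Myom1) and myomesin 2 (Myom2, also called M-protein) bridge myosin filaments at the M-band. In the Z-disc, alpha-actinin 2 (Actn2) crosslinks actin, Ldb3 (Cypher or ZASP) binds alpha-actinin, telethonin (Tcap) caps the end of titin, nebulette (Nebl) binds actin near the Z-disc, the muscle LIM protein Csrp3 takes part in stretch signalling, and Myoz2 (calsarcin-1) links alpha-actinin to the phosphatase calcineurin.

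The sequence upstream of the annotated gene start is shown for the 3 genes with a called probe that the RefSeq promoter table (GRCm38.p6) holds, because these are the genes whose probes fell. Each run is 250 bases, written 5′ to 3′ on the strand of the gene and ending at the base before the start. Capitals mark matches to the motifs searched on both strands, which were GGTGTGA (T-box), the MEF2 site (CTA and TAG separated by any 4 bases), CAGCTG (an E-box) and the CArG box bound by serum response factor.
Ttn, chr2:76982548-76982797, minus strand: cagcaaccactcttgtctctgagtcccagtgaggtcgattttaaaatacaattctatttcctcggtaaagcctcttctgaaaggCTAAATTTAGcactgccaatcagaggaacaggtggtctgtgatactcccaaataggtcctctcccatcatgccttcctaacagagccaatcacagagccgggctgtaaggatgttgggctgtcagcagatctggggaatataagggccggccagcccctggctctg
Myoz2, chr3:123034988-123035237, minus strand: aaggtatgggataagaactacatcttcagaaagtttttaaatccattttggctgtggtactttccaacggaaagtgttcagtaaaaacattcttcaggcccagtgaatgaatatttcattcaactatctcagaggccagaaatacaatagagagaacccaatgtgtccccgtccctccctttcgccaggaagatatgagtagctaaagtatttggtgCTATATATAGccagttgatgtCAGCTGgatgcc
Myom1, chr17:71019307-71019556, plus strand: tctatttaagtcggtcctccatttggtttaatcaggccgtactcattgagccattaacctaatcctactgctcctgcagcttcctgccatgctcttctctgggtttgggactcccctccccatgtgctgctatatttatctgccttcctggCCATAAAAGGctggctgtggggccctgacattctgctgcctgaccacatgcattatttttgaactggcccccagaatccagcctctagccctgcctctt

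The MEF2 letters begin 166 bases before the start of Ttn and 33 bases before that of Myoz2, the E-box lies 12 bases before the start of Myoz2, and a CArG box lies 99 bases before that of Myom1. Of all 32851 windows of this length in the table, 3.2% hold the MEF2 letters, 13.0% the E-box and 1.47% a CArG box. The table held 12 windows for 7 of the 9 genes. The T-box letters, found in 3.33% of all windows, are in none of these 12. A MEF2 match also stands in a window of Ldb3, and CArG boxes in windows of Ldb3 and Nebl, neither of which had a called probe. These matches describe the letters of the windows alone.

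Probes of titin and of both M-band genes were lower in the Tbx3 atria, and so was 1 probe of the Z-disc gene Myoz2. In limma over all probes, with a Benjamini-Hochberg adjusted p below 0.05 as the call, 6 of the 27 member probes were lower and 0 were higher, where 3.45% of all probes were called in either direction. The 6 were 3 of 11 for Ttn, the single probes of Myom1 and Myom2 and the dimmer of the 2 probes for Myoz2. The other 8 Ttn probes and 13 of the 14 Z-disc probes did not pass, and whether the M-band and titin differ from the Z-disc in their change was not tested. Over all probes 1.68% were called lower and 1.77% higher, but bright probes were called more often. Of the probes in the brightest 10%, 8.22% were called lower, against 4 of the 12 members among them. By the brightest probe of each gene 3 of 9 member genes fell, against 2.98% of all genes. Of these 9 probes 8 lay in the brightest 10%, among them the 3 that fell, so 8.22% is the nearer share. The median log2 change of the 27 probes was -0.12, against -0.0010 for all probes. All levels and changes below are on the log2 scale after quantile normalisation, and they rest on reading the deposited values as natural logs. In bulk atria fewer muscle cells and less RNA per muscle cell cannot be told apart.

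The group labels could not be checked by Tbx3 itself. The brighter probe for the mouse gene ran from 5.98 to 6.44 in Tbx3 arrays and from 6.26 to 6.79 in Control arrays, with a log2 change of -0.42 (adjusted p = 0.0263), opposite to the labelled overexpression, and the dimmer probe changed by 0.02. Whether either probe matches the sequence carried by the CT construct was not analysed here, so every direction below rests on the labels. Each array correlated better with its own group than with the other. Tbx3 array 6 and Control array 4 had the lowest mean correlation with their own groups (0.973 and 0.971, narrowly). Without both, Ttn probe 1, Ttn probe 2 and Myom2 passed at log2 changes of -0.48, -1.61 and -0.87 (adjusted p = 0.0411, 6.92e-07 and 6.39e-05), and the calls of Ttn probe 3, Myom1 and Myoz2 probe 2 were lost (adjusted p = 0.0936, 0.109 and 0.0613).

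Most atrial markers were bright in both groups, and markers of other cell types differed between them. Sln was dimmer, at 6.15 in Tbx3 and 6.96 in Control. Of 12 atrial muscle markers 11 were measured, all above the 75th percentile of brightness. The mean level of this list ran from 12.19 to 12.50 in Tbx3 arrays and from 12.69 to 12.86 in Control arrays, and 5 of the 11 fell (Nppa, Sln, Myh6, Ryr2 and Mybphl). Nppa, whose promoter drives Cre in both groups, fell by 1.35 (adjusted p = 1.20e-08), and the atrial light chain gene Myl7 changed by -0.26 (adjusted p = 0.338). Tnnt2, Pln, Myh7, Actc1 and Myl4 did not pass either, with log2 changes of 0.08, 0.04, 0.25, -0.03 and -0.24. Myl4 had the highest mean level of all probes and, after quantile normalisation, an SD of 0 in Control arrays. Its change can therefore not be read like those of the other markers. Fibroblast markers had a mean level of 9.72 to 10.26 in Tbx3 arrays and 9.32 to 9.81 in Control arrays, and 5 of 14 rose (Col1a1, Dpt, Lum, Mfap5 and S100a4). In the erythroid list, with means of 9.30 to 10.21 in Tbx3 and 8.09 to 9.57 in Control, 1 of 7 rose (Slc4a1), and in the smooth muscle list (7.54 to 7.85 in Tbx3 and 7.15 to 7.55 in Control) 3 of 6 rose (Myh11, Acta2 and Tagln) and 1 fell (Smtn). The part of these cell types in the results on the members was not tested. For fast skeletal muscle, which also makes titin and both myomesins, the list had a mean level of 5.46 to 5.60 in Tbx3 arrays and 5.81 to 6.26 in Control arrays, and 2 of 11 markers fell. Tnni2 averaged 5.91 ± 0.46 in Tbx3 and 9.19 ± 0.99 in Control, and Atp2a1 averaged 5.74 ± 0.14 in Tbx3 and 7.47 ± 0.44 in Control (SD, n = 6 each). These 2 alone of the 11 lay above the 75th percentile of brightness. The other 9 did not pass, with log2 changes from -0.30 for Actn3 to 0.17 for Myh4. Tnnt3, the second gene of the list, changed by 0.14 (adjusted p = 0.799). The means of the list therefore reflect mainly Tnni2 and Atp2a1. The part of such muscle in the results on titin and the myomesins was not tested.

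The 2 bright titin probes fell by different amounts, and Ttn probe 2 had the largest change of the 27 member probes. The Ttn probes are numbered 1 to 11 by their mean level. Ttn probe 2, designed on the cDNA AK036536, had a lowest, median and highest level of 9.92, 10.43 and 10.90 in Tbx3 arrays, against 11.40, 11.93 and 12.52 in Control arrays. The 2 ranges were apart, with the Tbx3 arrays on the low side. Ttn probe 2 fell by 1.56 on the log2 scale (SE 0.15, adjusted p = 6.74e-08), or 2.94-fold, with a 95% interval of the change of -1.87 to -1.25. Ttn probe 1, designed on the reference transcript NM_011652, had 10.92, 10.996 and 11.66 in Tbx3 arrays, against 11.40, 11.66 and 11.93 in Control arrays. The groups overlapped through Tbx3 array 2 alone, which at 11.66 lay within the Control range. Ttn probe 1 fell by 0.54 (SE 0.12, adjusted p = 0.00721), or 1.46-fold.

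**Figure D1:**
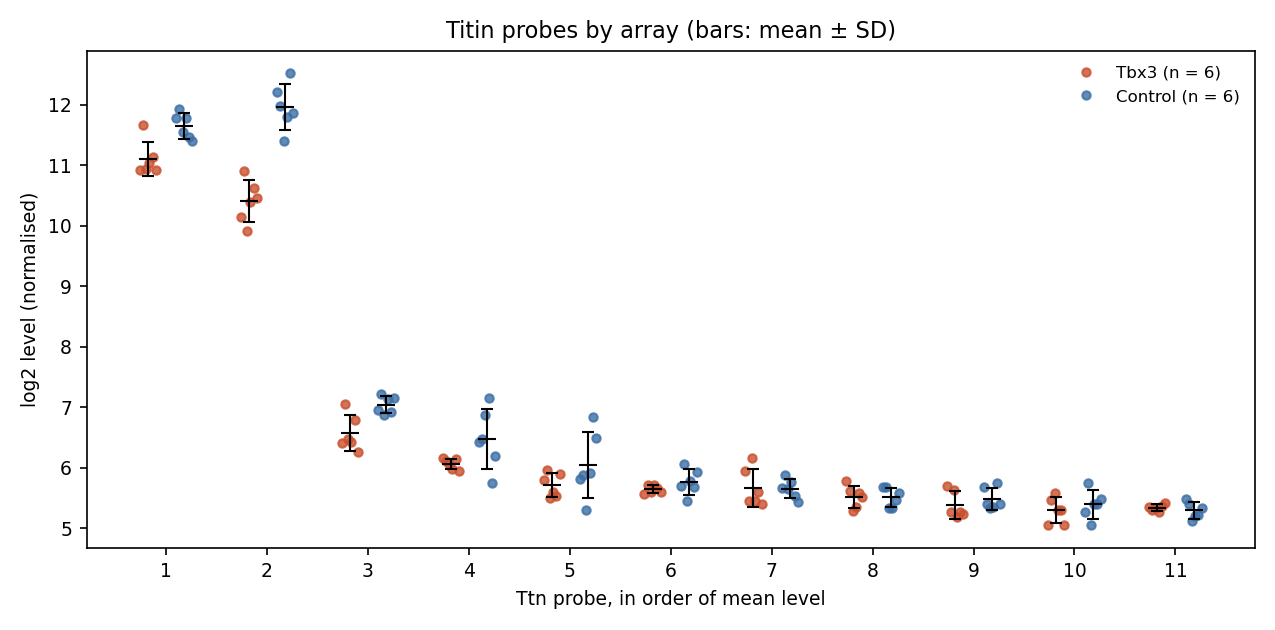
Normalised log2 level (vertical axis) of each of the 11 Ttn probes (horizontal axis, numbered by mean level) in 6 Tbx3 arrays (orange, left) and 6 Control arrays (blue, right). Points are arrays and bars are the mean and SD. The groups are apart for probe 2, at 9.92 to 10.90 in Tbx3 and 11.40 to 12.52 in Control, and overlap for the other probes.

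The remaining Ttn probes were dim. Ttn probe 3 averaged 6.57 ± 0.30 in Tbx3 and 7.04 ± 0.14 in Control (SD, n = 6 each) and fell by 0.48 (adjusted p = 0.0172), a call that was lost in 4 of 12 fits with a single array left out, those without Tbx3 arrays 1, 4 and 6 and Control array 2 (adjusted p up to 0.0536). The last 8 Ttn probes lay between the 24.5th and the 77.7th percentile of brightness and did not pass. Their log2 changes ran from -0.41 for probe 4 to 0.04 for probe 11. Ttn probe 4 averaged 6.07 ± 0.09 in Tbx3 and 6.48 ± 0.50 in Control (adjusted p = 0.172), and its adjusted p was 0.0120 without Control array 5. Where in the transcript each probe lies, and which of the titin isoforms it reads, was not analysed here. The mean of all 11 probes gave a log2 change of -0.33 (SE 0.07, adjusted p = 0.0122).

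The unequal change of the 2 bright titin probes was tested within arrays. The difference of Ttn probe 1 minus Ttn probe 2 was 0.70 ± 0.20 in Tbx3 arrays and -0.31 ± 0.44 in Control arrays (SD, n = 6 each). It ran from 0.47 to 1.03 in Tbx3 and from -1.05 to 0.15 in Control, so the groups did not overlap. The change of this difference, 1.01 on the log2 scale, had a 2-sided exact permutation p of 0.00216, the smallest that 924 regroupings of the arrays can give, and 0.0411 after adjustment over the 19 within-array pairs computed. Without Tbx3 array 1 or Tbx3 array 3 the exact p was 0.00433 and the adjusted p 0.0823. With Tbx3 array 6 and Control array 4 both left out the adjusted p was 0.0754. With both left out there are fewer regroupings and the smallest possible p is larger, so that loss of the call does not show a weaker difference. Without Tbx3 array 1 or Tbx3 array 3 the smallest possible p was still 0.00216, and the exact p lay above it. The values above stay apart between the groups whichever arrays are left out. The change stayed between 0.87 and 1.10 over all 12 single arrays left out. With the arrays paired by replicate number the adjusted p was 0.148, in a sign-flip test that cannot go below an unadjusted p of 0.0313. Against Ttn probe 1, the 2 next brightest probes did not differ past the threshold in their change (differences of -0.07 for probe 3 and -0.13 for probe 4, adjusted exact permutation p of 0.596 and 0.598). Its differences to probes 7, 8, 10 and 11 also passed. Those probes lay in the dim range, with log2 changes of their own between -0.10 and 0.04, so these differences repeat the fall of Ttn probe 1 and do not bear on unequal change within titin. They had changes of -0.56, -0.55, -0.45 and -0.59 (adjusted exact permutation p of 0.0480 each), and each of these 4 calls was lost in 10 or 11 of 12 fits with a single array left out (adjusted p up to 0.117).

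**Figure D2:**
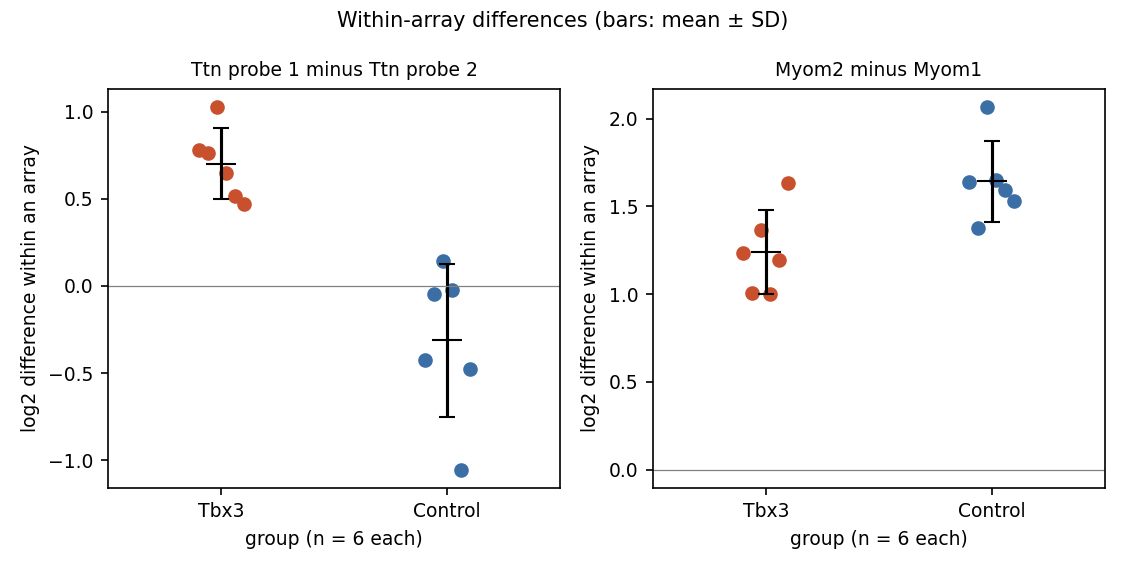
Log2 difference within each array (vertical axes) between Ttn probes 1 and 2 (left panel) and between Myom2 and Myom1 (right panel), for Tbx3 (orange, n = 6) and Control (blue, n = 6). Points are arrays and bars are the mean and SD. The titin difference is 0.47 to 1.03 in Tbx3 and -1.05 to 0.15 in Control, while the myomesin differences overlap, at 1.00 to 1.63 in Tbx3 and 1.38 to 2.07 in Control.

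Both myomesins of the M-band fell. Myom2, the isoform typical of fast fibres in skeletal muscle and also made in the heart, had a lowest, median and highest level of 10.001, 10.23 and 10.60 in Tbx3 arrays, against 10.84, 11.07 and 11.34 in Control arrays. All 6 Tbx3 arrays lay below all 6 Control arrays. It fell by 0.82 (SE 0.12, adjusted p = 3.28e-05), or 1.77-fold, and the fall was between 0.77 and 0.89 with any single array left out. Separated groups with a lower Tbx3 group were found for 1.16% of all probes, and for 6.14% of those in the brightest 10%. Among the members they were Ttn probe 2 and Myom2, 2 of the 12 in that brightness range. In the same arrays the fast skeletal markers Tnni2 and Atp2a1 fell as well (log2 changes of -3.28 and -1.72), and 9 of the 11 measured markers of that list did not pass.

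Myom1, the myomesin found in all striated muscle, stood at 8.77, 8.95 and 9.59 in Tbx3 arrays, against 9.27, 9.43 and 9.69 in Control arrays (lowest, median and highest). Of the Tbx3 arrays, number 2 alone reached into the Control range. Myom1 fell by 0.42 (SE 0.12, adjusted p = 0.0418), or 1.33-fold. This call sits close to the threshold. It was lost in 10 of 12 fits with a single array left out (all but those without Tbx3 array 2 and Control array 3, adjusted p up to 0.127), and without Tbx3 array 2 the log2 change was -0.53 (adjusted p = 0.00147).

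The pair of myomesins changed unequally by a small margin. Myom2 minus Myom1 within an array was 1.24 ± 0.24 in Tbx3 and 1.64 ± 0.23 in Control (SD, n = 6 each), and the groups overlapped, at 1.00 to 1.63 in Tbx3 and 1.38 to 2.07 in Control. The difference changed by -0.40 (2-sided exact permutation p = 0.0130, adjusted p = 0.0480 over the 19 pairs). With arrays paired by number the sign-flip test gave an adjusted p of 0.148, and its unadjusted p cannot go below 0.0313. The exact permutation call was lost in 11 of 12 fits with a single array left out (all but that without Tbx3 array 6, adjusted p up to 0.0987).

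**Figure D3:**
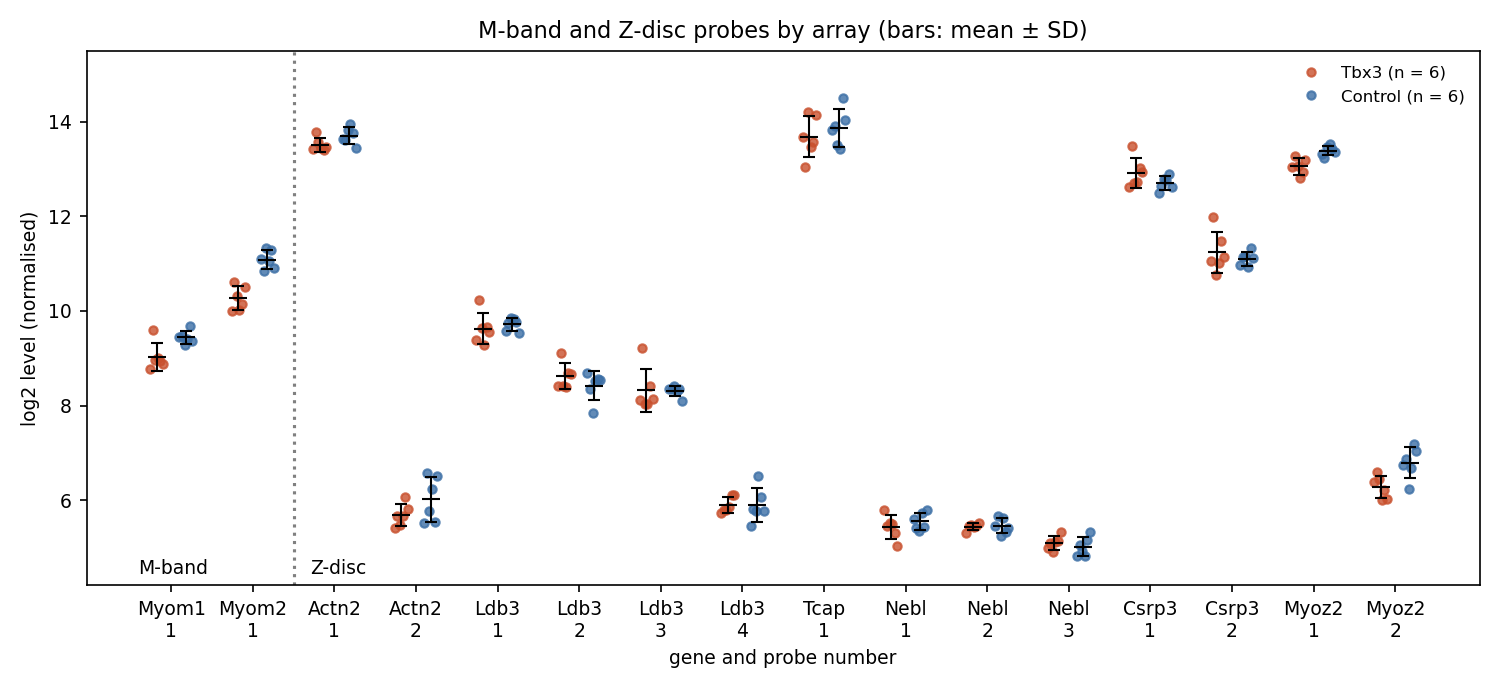
Normalised log2 level (vertical axis) of the 2 M-band and 14 Z-disc probes (horizontal axis, gene and probe number by mean level) in 6 Tbx3 arrays (orange, left) and 6 Control arrays (blue, right). Points are arrays and bars are the mean and SD. Myom2 is separated between the groups, at 10.001 to 10.60 in Tbx3 and 10.84 to 11.34 in Control, and every Z-disc probe overlaps.

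Of the Z-disc genes Myoz2 alone had a called probe, the dimmer of its 2. Its bright probe, at the 99.9th percentile, had 12.80, 13.05 and 13.28 in Tbx3 arrays, against 13.24, 13.39 and 13.52 in Control arrays. The overlap was Tbx3 array 2 with Control array 2. The log2 change of this probe was -0.33 (SE 0.10) with an adjusted p of 0.0631, just outside the threshold, and without Tbx3 array 2 it was -0.38 with an adjusted p of 0.0315. Leaving out single arrays gave adjusted p up to 0.190 (without Tbx3 array 4), and 10 of these 12 fits did not pass. The adjusted p was 0.107 with the replicate block and 0.120 with quantile normalisation within 2 blocks of probe identifiers. The probe passed without Tbx3 array 6 (adjusted p = 0.0475), in the values as deposited (log2 change -0.41, adjusted p = 0.0192), after median centring (adjusted p = 0.0218), with dim probes left out (adjusted p = 0.0317) and with the robust intensity trend (adjusted p = 0.00710). Myoz2 probe 2, designed on the cDNA AK085927, averaged 6.28 ± 0.24 in Tbx3 and 6.79 ± 0.33 in Control (SD, n = 6 each) and fell by 0.51 (SE 0.13, adjusted p = 0.0218). That call was lost in 6 of 12 fits with a single array left out, those without Tbx3 arrays 4, 5 and 6 and Control arrays 2, 5 and 6 (adjusted p up to 0.0763). The mean of both probes gave -0.42 (SE 0.09, adjusted p = 0.0116).

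For Actn2, Tcap and Ldb3 no probe passed. Actn2 probe 1 had 13.40, 13.45 and 13.78 in Tbx3 arrays, against 13.45, 13.70 and 13.96 in Control arrays (log2 change -0.19, 95% interval -0.40 to 0.02, adjusted p = 0.502). The dimmer Actn2 probe changed by -0.34 (95% interval, not adjusted for the number of probes, -0.66 to -0.02, adjusted p = 0.365). Tcap varied most among arrays, with an SD within groups of 0.42 against a median of 0.16 for the brightest 10% of probes. It ran from 13.04 to 14.21 in Tbx3 and from 13.41 to 14.51 in Control (log2 change -0.18, 95% interval -0.52 to 0.16, adjusted p = 0.806). The 3 brighter Ldb3 probes had log2 changes of -0.09 (95% interval -0.34 to 0.16), 0.20 (-0.07 to 0.47) and 0.01 (-0.28 to 0.31), with adjusted p of 0.888, 0.655 and 0.992. The dimmest Ldb3 probe changed by 0.0041 (95% interval -0.26 to 0.27). Without Tbx3 array 2 the change of Ldb3 probe 3 was -0.16 (adjusted p = 0.615).

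Csrp3, the stretch-linked LIM protein, was the one member gene whose brightest probe had a positive change. Csrp3 probe 1 had 12.61, 12.83 and 13.49 in Tbx3 arrays, against 12.49, 12.70 and 12.90 in Control arrays, with overlapping groups. The log2 change was 0.22 (95% interval -0.03 to 0.47, adjusted p = 0.539) for probe 1 and 0.13 (adjusted p = 0.846) for probe 2, and without Tbx3 array 2 they were 0.10 and -0.02. The 3 Nebl probes lay at the 44.7th, 40.0th and 3.5th percentile of brightness, with means of 5.10 to 5.44 in Tbx3 and 5.01 to 5.55 in Control, so that nebulette was not readable above the dim range of the array. Their log2 changes ran from -0.12 to 0.08.

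**Figure D4:**
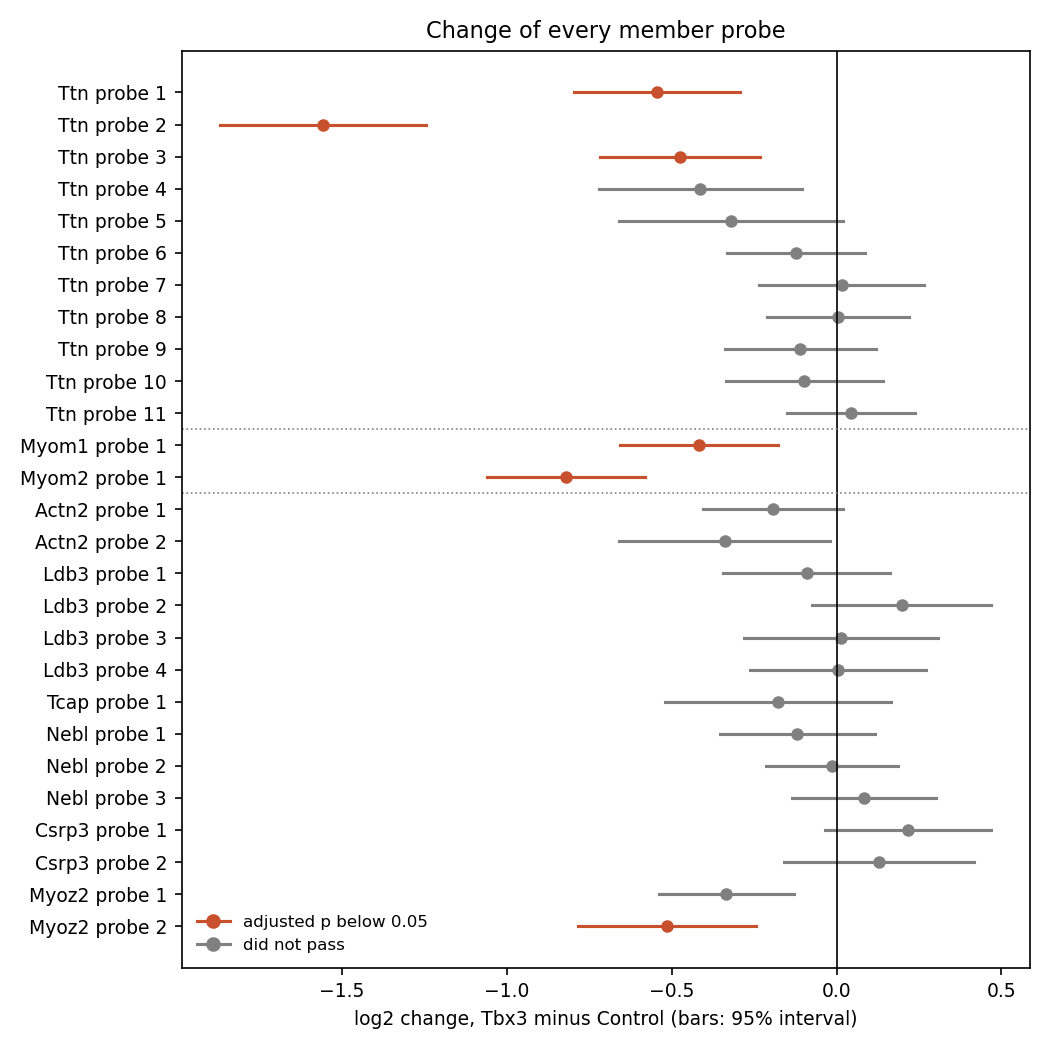
Log2 change, Tbx3 minus Control (horizontal axis), of each of the 27 member probes (vertical axis), in the order titin, M-band and Z-disc, with dotted lines between them. Points are estimates from limma, bars are 95% intervals, and orange marks an adjusted p below 0.05. The 6 orange points all lie left of 0, the farthest being Ttn probe 2 at -1.56.

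Tbx3 array 2 stood high for most members. By the brightest probe of each gene, Tbx3 array 2 was the highest of the Tbx3 arrays for 7 of 9 genes, Ttn, Myom1, Myom2, Actn2, Ldb3, Csrp3 and Myoz2, and the lowest for Tcap. Its median deviation from the Tbx3 means of the 9 genes was 0.34, against -0.20 to 0.02 in the other Tbx3 arrays. Tbx3 array 1 was the lowest for 4 genes, Ttn, Myom1, Myom2 and Csrp3. In Control no array was the highest for more than 3 genes, and Control array 4 was the highest for Actn2 and Myoz2 and the lowest for Tcap. Without Tbx3 array 2 the falls of Ttn probe 1 and Myom2 were larger, at 0.66 and 0.89.

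The genes with the profiles most like the called members were sought over all named genes, by the root mean square difference between log2 profiles over the 12 arrays, each probe taken about its own mean. For Myom2 these were the histone gene H4c1 (difference 0.13, log2 change -0.78) and Lmod3, a leiomodin that nucleates actin filaments (0.14, log2 change -0.91), where the median over all genes was 0.49. For Ttn they were Asb11, an ankyrin repeat protein (0.13, log2 change -0.55), and Lims2, an adaptor at sites of cell adhesion (0.14, log2 change -0.31, adjusted p = 0.239). For Myom1 they were Crat, the carnitine acetyltransferase of mitochondria (0.10, log2 change -0.39, adjusted p = 0.0624), and Ndufa2 of respiratory complex I (0.12, log2 change -0.41, adjusted p = 0.0150). The profiles share the group difference, so this likeness includes it.

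Among 18 measured partners of the M-band and titin, 7 fell, 1 rose and 10 did not pass, where 2.98% of all genes were called lower and 2.97% higher. Of the 18, 14 lay above the 75th percentile of brightness. Bright probes were called more often (8.22% called lower in the brightest 10%). The median log2 change was -0.18, against -0.0032 for all genes. The muscle creatine kinase gene Ckm, whose enzyme binds the M-band, fell by 0.97 (SE 0.11, adjusted p = 1.03e-06). Obsl1, an obscurin-like protein that binds titin and myomesin at the M-band, fell by 0.83 (SE 0.11, adjusted p = 6.36e-06), to a level of 8.58 ± 0.20 in Tbx3, against 9.42 ± 0.15 in Control (SD, n = 6 each). Trim54, a ring finger protein of the sarcomere, fell by 0.62 (adjusted p = 0.000322), and Ankrd23, an ankyrin repeat protein that binds the elastic part of titin, fell by 0.76 (adjusted p = 0.00257). The rise was in Fhl2, a LIM protein that docks metabolic enzymes to titin, by 0.87 (SE 0.16, adjusted p = 0.00111).

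Among 41 measured partners of the Z-disc and the thin filament end, 8 fell, 4 rose and 29 did not pass, with a median of -0.07. Over all genes 2.98% were called lower and 2.97% higher. Of the 41, 32 lay above the 75th percentile of brightness, and 8.22% of probes in the brightest 10% were called lower. Those with the smallest p among the falls were Lmod3 (log2 change -0.91, adjusted p = 1.61e-06), the caveola protein gene Cavin4 (-0.96, adjusted p = 2.46e-05), the LIM protein gene Pdlim4 (-0.77, adjusted p = 4.24e-05) and Nrap, a scaffold of nascent myofibrils (-0.70, adjusted p = 0.0014). The genes that rose were the LIM protein genes Pdlim7 (0.62, adjusted p = 0.00323) and Csrp2 (0.52, adjusted p = 0.0385) and the non-muscle alpha-actinins Actn1 (0.52, adjusted p = 0.00425) and Actn4 (0.40, adjusted p = 0.0478). Csrp2 and Actn1 are also made by smooth muscle cells and fibroblasts, and Actn4 is broadly expressed. The fibroblast and smooth muscle lists were higher in the same arrays by the values given above, and their part in these rises was not tested.

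Among 14 measured regulators of titin splicing and of filament gene expression, 3 rose, 2 fell and 9 did not pass. Over all genes 2.98% were called lower and 2.97% higher. Of the 14, 13 lay above the 75th percentile of brightness, and 8.22% of probes in the brightest 10% were called lower. The list held 16 genes, and the splicing regulators Rbm20 and Rbm24 were not among those measured. Ptbp1, a splicing repressor, rose by 0.42 (SE 0.10, adjusted p = 0.00788), and all Tbx3 arrays lay above all Control arrays. The other measured splicing genes, Celf1 and Mbnl1, changed by -0.01 and 0.08 (adjusted p = 0.988 and 0.863). The MEF2 factor genes Mef2c and Mef2a fell by 0.45 (adjusted p = 0.00816) and 0.43 (adjusted p = 0.0187). Gata4, a cardiac transcription factor gene, and Mrtfa, a coactivator of serum response factor, rose by 0.44 (adjusted p = 0.0260) and 0.39 (adjusted p = 0.0316). With the mean of all probes of each gene 3 of the 14 passed. The fits without Control array 1 or 4, without Tbx3 array 1, 2 or 6 and without Control 4 and Tbx3 6 together also left 3.

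**Figure D5:**
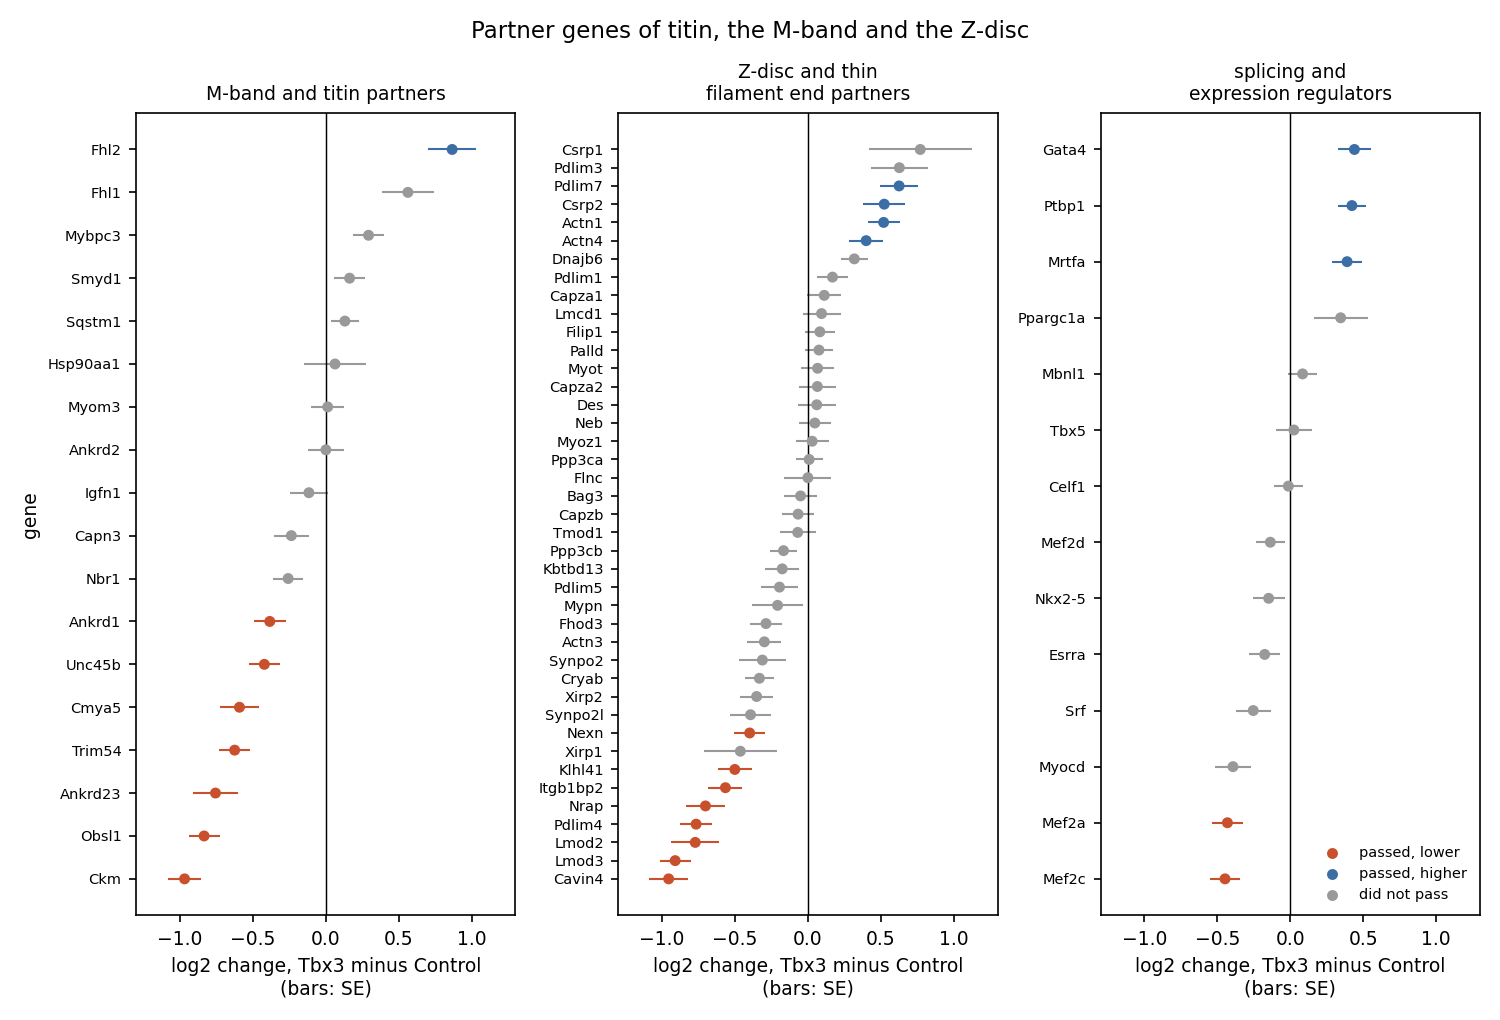
Log2 change, Tbx3 minus Control (horizontal axes), of the 18, 41 and 14 measured genes (vertical axes) in the 3 partner lists, each by its brightest probe. Points are estimates from limma, bars are standard errors, orange marks genes that passed and were lower, blue genes that passed and were higher. Lower genes outnumber higher ones by 7 to 1 in the M-band and titin list and by 8 to 4 in the Z-disc list.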

How the data were processed

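The authors deposited 1 log-scale value per probe and array, read here as natural log from their range of 2.63 to 10.81; background correction, normalization and log base are not stated in the labels. Division by the natural log of 2 put them on the log2 scale. If the deposited base is 2, each log2 change shrinks to 0.693 of the printed size, with p-values unchanged. Of 46133 rows, 10 empty and 9 repeated ones were dropped, none a member. Arrays were quantile normalised and compared, Tbx3 minus Control, in limma 3.58.1 (R 4.3.3; lmFit and eBayes, 2-sided, Benjamini-Hochberg over 46114 probes). Of these, 29533 had 1 gene symbol in the platform annotation, 11 several and 16570 none, and the brightest probe stood for each of 17655 genes. Detection calls were not analysed here, so brightness is the percentile of a probe's mean level. Within-array differences were tested by 2-sided exact permutation, adjusted over 19 pairs. The scripts were tested on simulated data. A level carries the SD over arrays, and a change the SE of the fit. The arrays are biological replicates per the labels. Alternatives covered normalisation, dim probes, array weights, the variance model, the replicate block, the log base and arrays left out.

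The members and lists were chosen with earlier results of these data known. The text names all member probes, up to 4 genes per direction of each partner list with the smallest p, and the 2 genes with profiles most like each called member gene. Celf1 and Mbnl1 of the regulator list were named after their values were seen. Of the cell type lists the first 2 genes could be named; the others were chosen after their values were seen. Other lists read were endothelium (8 measured, 1 fell), macrophage (5 measured, 0 passed), adipocyte (5 measured, 0 passed) and ventricular muscle (7 measured, 2 rose and 1 fell).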

Additional observations from a re-analysis of the deposited data

Results flagged for a closer look

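A single array stood far from the rest of its group for 4 of the 54 combinations of member probe and group, where chance is expected to do so in about 1 in 20. In 3 of them the array was Tbx3 array 2. For Ttn probe 1 it stood at 11.66, with the next Tbx3 array at 11.14, a gap of 0.71 of the range of the group. For Myom1 it stood at 9.59 against 9.01 (0.703 of the range), and for Ldb3 probe 3 at 9.21 against 8.42 (0.668 of the range). Control array 6 was low for Ldb3 probe 3, at 8.10 against 8.30 (0.647 of the range). Without Tbx3 array 2 the log2 changes were -0.66 for Ttn probe 1 (adjusted p = 0.000281), -0.53 for Myom1 (adjusted p = 0.00147) and -0.16 for Ldb3 probe 3 (adjusted p = 0.615), against 0.01 for Ldb3 probe 3 with all arrays. Without Control array 6 Ldb3 probe 3 changed by -0.03 (adjusted p = 0.976).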

How the results depend on the processing

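The falls of Ttn probes 1 and 2 and of Myom2 kept their calls under all 21 alternatives tried for each. Their log2 changes were -0.66 to -0.38, -1.67 to -1.08 and -0.89 to -0.57, the smallest with the values read as base 2. Reading as base 2 leaves the p-values unchanged, so that alternative could not lose a call. Over all member probes and pairs no called change reversed its direction, and 92 of 902 values lost a call while 13 gained one. Only the values of the 6 probes and 6 pairs called in the main fit could lose a call. Most of the 902 values belong to other probes and pairs, so 902 is not the base for the 92 losses. With a single array left out, 1208 to 1619 probes passed in all (1592 with all arrays), 2 to 4 for titin, 1 to 2 for the M-band, 0 to 2 for the Z-disc, 2 to 4 member genes, 6 to 8 and 9 to 12 partners of the M-band and the Z-disc, 3 to 5 regulators, and 0 to 7 of the 19 within-array pairs against 6 with all arrays. The 0 for pairs came without Tbx3 array 1 or 3. The Z-disc count was 2, not 1, in the values as deposited, after median centring, without dim probes and with the robust intensity trend. Quantile normalisation within 2 blocks of probe identifiers, chosen after seeing the data, left 1 M-band call. Leaving out Control 4 and Tbx3 6 together, also chosen after seeing the data, left 1 M-band call, 0 Z-disc calls, 3 regulators and 0 pairs. With both left out the exact pair test has fewer regroupings and a larger smallest p. The mean of all probes left 3 regulators. With the replicate block the limma counts stayed within 1.5 times of the main ones (3, 2 and 1 for titin, M-band and Z-disc). The sign-flip test called 0 pairs. Its unadjusted p cannot go below 0.0313, so it could call a pair only if most of the 19 reached that floor. Its 0 calls therefore do not bear on the pairs. The numbers share no stated litter or day. Same-numbered arrays deviated with correlations of -0.02 to 0.07, and both arrays of number 1 alone correlated best with their own number. The causes of these differences were not tested.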
